A study of Rattus norvegicus with 6 samples.

Results

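Long non-coding RNAs (lncRNAs) whose probes carry names beginning with MRAK are rat regions that the array's designers matched to full-length mouse cDNAs. The members were all non-control probes so named: 3588 of the 24684 probes on the array, each printed in 3 spots and each the only probe of its transcript. They were measured in pancreatic islets, the endocrine cell clusters of the pancreas, which had been freed by collagenase. RNA of adult male rats, 1 rat per array, was set against RNA of pools of rats aged 10 days (P10), with 3 arrays per stage, all labelled with cyanine 3 and hybridised in 1 colour. The strain, the adult age, the sex of the P10 rats and the number of rats in a pool are not given in the sources used here. The labels name no genetic change or treatment for either group. Sequences, genome positions and gene names of the MRAK transcripts were not analysed here, so each is named as on the array (MRAK081258 for its probe MRAK081258_P1).

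As background, lncRNAs are transcripts that are not translated into a known protein. Many are spliced and capped like mRNAs, are present at low levels and in few cell types, and some act on chromatin, on transcription of neighbouring genes or on RNA in the cytoplasm. Large collections of mouse full-length cDNAs held many transcripts without a clear reading frame, and a match in the rat genome is one way to nominate a rat counterpart. In the weeks after birth islet cells divide less, and beta cells, which make insulin, become able to release it in response to glucose. The labels set islets before and after this maturation side by side.

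On each array 55.9 to 61.5% of MRAK probes were well above background by the scanner's flag, against 80.9 to 83.4% of protein-coding probes, and 0 MRAK probes were saturated. The MRAK share ran from 55.9 to 61.5% on the 3 adult arrays and from 57.2 to 60.0% on the 3 P10 arrays, so the stages overlapped. With near-identical arrays averaged, which leaves 2 samples per stage, the adult share was 57.5% ± 2.3 (SD, n = 2). The P10 share was 59.0% ± 1.4 (SD, n = 2). An exact permutation test over the 6 arrays (p = 0.8, two-sided) cannot go below 0.1 and takes near-identical arrays as separate, so it says little. By the scanner's looser flag for a positive and significant signal, the adult share less the P10 share was -5.78 points over these samples. All 6 arrays measured 1747 MRAK probes well above background, 107 were so on the 3 adult and 0 of the P10 arrays, and 103 on the 3 P10 and 0 of the adult arrays. Another 82 were well above background on all adult and some P10 arrays, and 129 the other way round. Not tested were 1116 MRAK probes that were well above background on 0 arrays and 304 that were so on some arrays but not on all 3 of either stage. Tested were thus 2168 of 3588 MRAK probes, 3 of them missing on some array after outlier spots had been left out.

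A level here is a probe's log2 signal less the 75th percentile of its array. A change is the adult level less the P10 level, in log2, with a standard error (SE). Over the tested MRAK probes, adult arrays 2 and 3 differed with a variance 1.13 times that of spot noise, and P10 arrays 1 and 2 with 0.67 times. Each of these pairs was averaged and counted as 1 sample, giving n = 2 per stage. Over these probes P10 array 3 also stood within spot noise of arrays 1 and 2, at 0.80 times for each, so the P10 arrays may as well be counted as 1 sample, and that count is given beside the main one. Adult array 1 differed from arrays 2 and 3 by 12.5 and 9.08 times spot noise. By the file headers it had the same scan date as the P10 arrays, while adult arrays 2 and 3 had another. The arrays of each scan date are called slide 1 and slide 2 here, though no slide number was read. Slide and adult sample thus cannot be told apart. By the labels each array stands for another rat or another pool. The p-values measure only the spread between these samples, and the number of arrays limits the precision.

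MRAK probes were called in both directions, with more lower than higher in adult islets by the main scaling, as over the whole array. With quantile normalization 52.3% of called MRAK probes were lower, against 50.3% of all called probes. By limma at an adjusted p under 0.05, 394 of 2168 tested MRAK probes (18.2%) were higher in adults and 717 (33.1%) were lower, while 1057 did not pass the test. Over all 18355 tested probes of the array 21.3% were higher and 31% lower, 52.4% in all, against 51.2% of MRAK probes, so the total is close to that of the array. With all P10 arrays counted as 1 sample, whose spread is then taken from the adults, 140 MRAK probes were higher and 375 lower, where 8.45% and 13.4% of all tested probes were called. The median change was -0.39 for MRAK probes and -0.23 for all tested probes. Changes of at least 2-fold were called for 279 higher and 608 lower MRAK probes, or 12.9% and 28.0%, against 14.6% and 23.7% of all tested probes. At 8-fold or more there were 38 higher (1.75%) and 133 lower (6.13%), against 2.07% and 4.51%. Probes well above background in 1 stage only have a limit and no measured fold. With these limits in place of fitted folds 35 higher (1.61%) and 88 lower (4.06%) remained at 8-fold, against 1.83% and 3.41%. At 2-fold 259 higher (11.9%) and 608 lower (28.0%) remained, against 14.2% and 23.7% of all tested probes. As given below, limits against adults can run deeper than limits against P10. All 3 adult arrays lay above all 3 P10 arrays for 589 MRAK probes (27.2%, background 31.5%) and below them for 1042 (48.1%, background 45.2%). The scatter of stage means shows the called probes on both sides of the diagonal, with a dense group of dim lower probes.

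**Figure D1:**
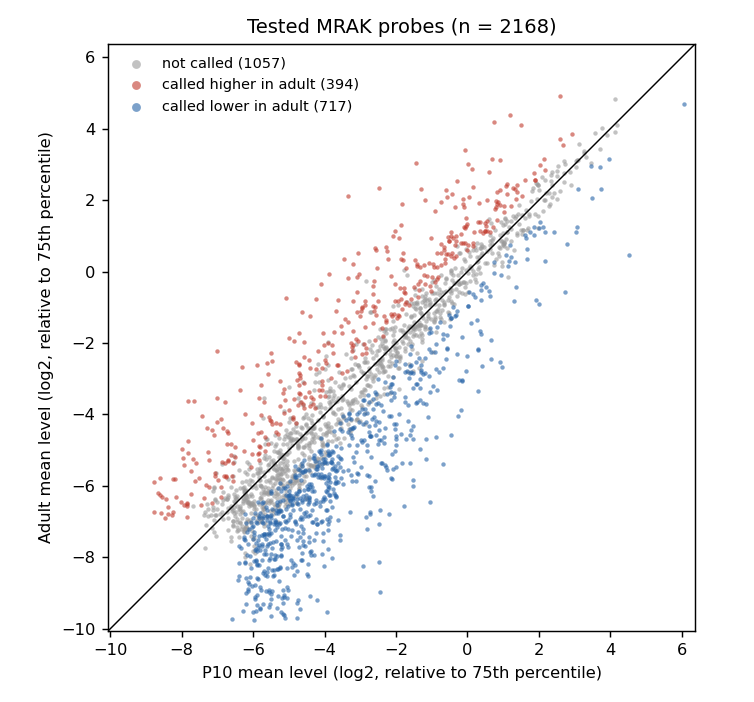
Mean level of each of the 2168 tested MRAK probes at P10 (x axis) and in adults (y axis), as log2 signal less the 75th percentile of the array, with the diagonal marking equal levels. The 394 probes called higher in adults lie above the diagonal and the 717 called lower lie below it, many of these at low signal.

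The balance of directions depended on signal strength and on the scaling. Ordered by mean level and cut into groups of 542, the brightest tested MRAK probes held 166 higher in adults against 85 lower, and their median change was 0.18. Quantile normalization gave 180 and 95 in that group. Of the 542 dimmest 61 were higher and 250 lower (median change -1.05), and quantile normalization gave 156 and 193 (median -0.10). The groups between held 61 and 106 higher and 218 and 164 lower. The pattern was shared in part by the array. Over all tested probes within the same signal limits as the dimmest group 14.0% were higher and 44.9% lower, against 11.3% and 46.1% of MRAK probes. Within the limits of the brightest group these shares were 24.6% and 24.8% over all tested probes and 30.6% and 15.7% over MRAK probes. These shares are a description, with no test. Signal strength also reflects how well a probe binds, so this orders probes, not transcripts. The subtracted percentile was 10.93 to 11.36 on adult arrays and 9.92 to 9.99 on P10 arrays, so that a probe of equal dim signal on all arrays stands lower in adults by about that gap.

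With quantile normalization 591 of 2168 MRAK probes were higher and 647 lower, where the background over all tested probes was 28.4% higher and 28.7% lower, and the share of lower among called MRAK probes went from 64.5% to 52.3%. Of the 394 called higher by the main scaling, 394 were also called with quantile normalization, which is 66.7% of its list. Of the 717 called lower, 609 were shared, 84.9% of the one list and 94.1% of the other. Before any scaling 549 of the 717 lower probes had less signal in adults. The size of the excess of lower calls thus depended on the scaling, whereas 0 of the 394 higher and 717 lower calls turned to a call in the opposite direction in the alternatives that tested them. Another 85 MRAK probes, without a call here, were called higher in some alternatives and lower in others. No such count was made over all tested probes.

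The largest rises were picked among called probes well above background on all 6 arrays whose stages did not overlap, and were led by MRAK081258. It stood at 1.40, 2.84 and 2.82 on the adult arrays and at -3.15, -3.27 and -3.48 on the P10 arrays. Adult array 1 was the lowest of the adults by more than the whole P10 range. Its change was 5.46 (SE 0.54, limma adjusted p = 0.00412), a 44.0-fold difference. It was 6.17 without adult array 1, 4.75 on slide 1 alone, 4.70 with slide as a block and 4.83 with normexp background correction. MRAK037263 measured 1.79, 3.13 and 2.69 in adults and -2.25, -2.42 and -2.63 at P10, rising by 4.84 (SE 0.43, limma adjusted p = 0.00344). For MRAK013326 the adult levels were 2.49, 3.43 and 3.72 and the P10 levels -1.33, -1.36 and -1.55, a rise of 4.48 (SE 0.42, limma adjusted p = 0.0037). In both of these, too, adult array 1 was the lowest adult array and still far above every P10 array.

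MRAK044498 showed a rise of like size with almost no spread. Its levels were -0.77, -0.73 and -0.71 on the adult arrays and -5.09, -5.09 and -5.08 on the P10 arrays, and it rose by 4.34 (SE 0.13, limma adjusted p = 0.00131). MRAK037573 was the most uneven of the 12 largest rises. It stood at -0.65, 1.39 and 1.35 in adults against -3.24, -3.42 and -3.57 at P10, so that its change of 3.81 (SE 0.74, limma adjusted p = 0.0194) was 2.80 on adult array 1 and 4.82 on the mean of arrays 2 and 3. The rises of MRAK133376 (3.80), MRAK020354 (3.76), MRAK044057 (3.75), MRAK029383 (3.65) and MRAK043858 (3.61) likewise had adult array 1 as the lowest adult array. MRAK005091 rose by 3.61 with adult array 1 as the highest, at 2.79 against 1.87 and 1.79, and MRAK076141 rose by 3.48 with levels of -1.01, -1.27 and -1.27. With limma, 11 of these 12 were called higher here and in all alternatives that held them, the exception being MRAK029383, whose change was 1.42 (limma adjusted p = 0.118) with normexp background correction. Normexp also gave smaller rises for MRAK044498 (2.87) and MRAK076141 (2.33).

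**Figure D2:**
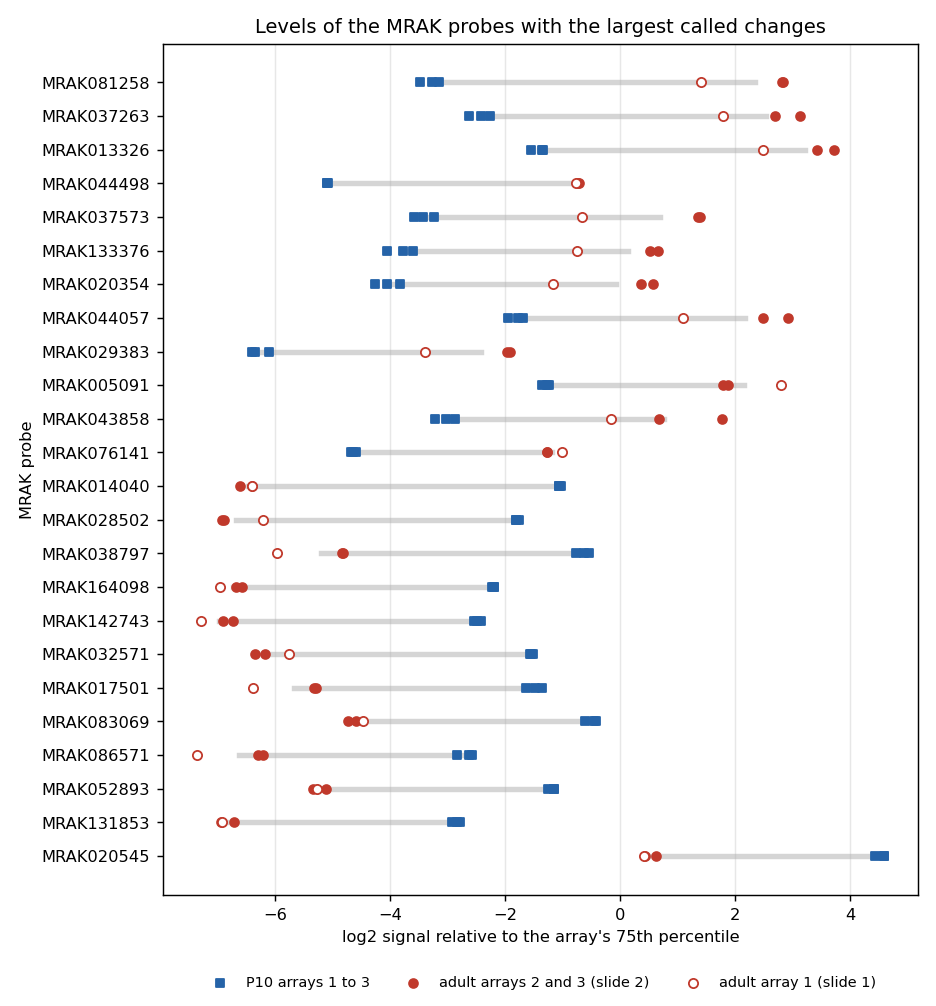
Level on each array of the 12 MRAK probes with the largest called rise and the 12 with the largest called fall, as log2 signal less the 75th percentile of the array. They were picked among probes well above background on all 6 arrays whose stages did not overlap. Open circles are adult array 1, filled circles adult arrays 2 and 3, squares the P10 arrays, and grey bars join the means of the 3 arrays of each stage. For MRAK037573 adult array 1 stood at -0.65 against 1.39 and 1.35.

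Among falls measured on all 6 arrays, picked in the same way, MRAK014040 was the steepest. Its levels were -6.40, -6.61 and -6.39 in adults and -1.06, -1.03 and -1.05 at P10, and its change was -5.40 (SE 0.13, limma adjusted p = 0.00112), a 42.3-fold difference. The arrays of each stage lay within a narrow band, and the bands were far apart. MRAK028502 stood at -6.20, -6.92 and -6.89 in adults and -1.81, -1.81 and -1.76 at P10, a change of -4.77 (SE 0.28, limma adjusted p = 0.0018). For MRAK038797 the values were -5.96, -4.82 and -4.81 against -0.53, -0.63 and -0.77, a change of -4.71 (SE 0.43, limma adjusted p = 0.0036), with adult array 1 the lowest of all arrays. The changes of MRAK164098, MRAK142743, MRAK032571 and MRAK017501 were -4.59, -4.57, -4.47 and -4.31, and those of MRAK083069, MRAK086571, MRAK052893 and MRAK131853 were -4.09, -4.08, -4.08 and -4.05.

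MRAK020545 kept a strong signal in both stages. It stood at 4.59, 4.59 and 4.43 on the P10 arrays and at 0.42, 0.63 and 0.44 on the adult arrays, so even the adult arrays measured it above their 75th percentile, and the change of -4.03 (SE 0.15, limma adjusted p = 0.00131) was -3.92 with quantile normalization. Within single arrays it ranked between the 71.1 percentile and the 97.5 percentile of tested probes. All 12 falls were called lower here and in all alternatives that held them. Normexp, which adds an offset and draws dim signals together, gave changes between -3.97 for MRAK020545 and -2.17 for MRAK131853. Of the 24 rises and falls, the fold moved by over 1.5 times for 18 with normexp, 10 with slide as a block, 7 on slide 1 alone, 7 without adult array 1, 4 with quantile normalization, 3 with the authors' values and 0 in the other alternatives.

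Some MRAK transcripts were well above background in 1 stage only. Of the 107 such probes in adults 66 were called higher (3.04% of tested MRAK probes, background 2.02%), and of the 103 at P10 103 were called lower (4.75%, background 2.63%). These probes passed the filter through the stage in which they are bright, so the counts describe the filter as well as the transcripts. Their dim stage gives only a limit, and "at least" folds set the bright stage against, on each array of the dim stage, the higher of the probe's own signal and the lowest signal measured well above background. Their limma p-values likewise rest on signals that are not well above background in the dim stage. Over the 66 the median was at least 2.39-fold higher in adults, and over the 103 at least 5.52-fold lower. The lowest signal measured well above background stood at -8.15 to -7.72 on adult arrays and at -7.25 to -6.99 on P10 arrays. Limits against adults can thus run deeper than limits against P10, so these medians are not on one scale.

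MRAK050663 had the largest such difference. It stood at -2.45, -2.51 and -2.41 at P10 and at -8.90, -9.17 and -8.90, not well above background, in adults, and was lower there by at least 47.8-fold (adjusted p = 0.0011 by limma). MRAK053282 was at least 33.5-fold lower (adjusted p = 0.00131 by limma), from P10 levels of -3.05, -3.03 and -2.81. MRAK012306, MRAK048605 and MRAK162534 were at least 17.0-, 15.6- and 12.9-fold lower. In the other direction MRAK005097 led, at -1.98, -2.55 and -2.41 in adults and -7.10, -6.79 and -7.08 at P10, at least 27.1-fold higher in adults (limma adjusted p = 0.00143). MRAK041733, MRAK048947 and MRAK040987 were at least 11.4-, 11.3- and 10.2-fold higher, and MRAK048557 was 8.74-fold higher by the fit. For MRAK048557 no limit applies beyond the fit, as its own P10 signals of -6.90, -6.77 and -6.72 lay above the lowest signal measured well above background. The limits of MRAK005097 and MRAK040987 rest in part on their own P10 signals. Those of MRAK053282, MRAK048605 and MRAK162534 rest in part on their own adult signals. The adult arrays of these 10 probes did not overlap with the P10 arrays, which the way they were picked largely fixes. With normexp the fitted changes of the 10 were 0.72 to 1.78 in adults' favour and -1.54 to -2.72 in the other direction, and MRAK048557 (limma adjusted p = 0.0763) and MRAK162534 (limma adjusted p = 0.0527) no longer passed the test.

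**Figure D3:**
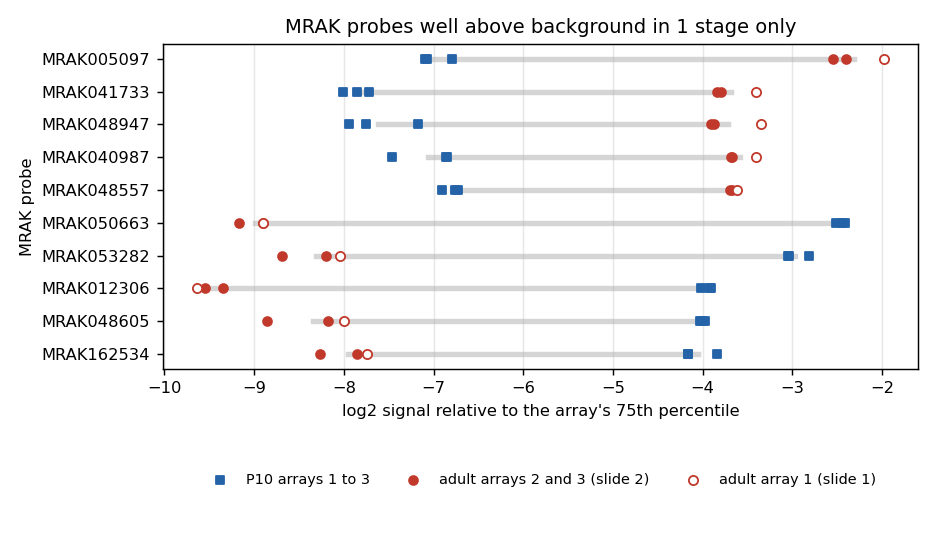
Level on each array of the 5 MRAK probes with the largest limit on the fold among those well above background on the 3 adult arrays only and the 5 on the 3 P10 arrays only, as log2 signal less the 75th percentile of the array. Circles are adult arrays (open for array 1), squares P10 arrays and grey bars join stage means of 3 arrays; MRAK050663 stood between -2.51 and -2.41 at P10 and between -9.17 and -8.90 in adults.

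Of the 5 MRAK probes with the brightest signal 1 passed the test. MRAK154943 stood at 6.02, 6.14 and 6.06 at P10 and at 5.0, 4.44 and 4.37 in adults. The stages did not overlap, and its change of -1.37 (SE 0.25, limma adjusted p = 0.0163) was -0.70 with quantile normalization (limma adjusted p = 0.126) and did not pass the test without P10 array 3 either (limma adjusted p = 0.0837), nor with median scaling, the authors' values or all P10 arrays as 1 sample. MRAK011429 stood at 5.07, 4.58 and 4.63 in adults and 4.01, 3.88 and 4.30 at P10. Its change of 0.71 (SE 0.24, limma adjusted p = 0.0762) was 1.14 with quantile normalization (limma adjusted p = 0.0286) and 0.94 on slide 1 alone. It also passed with the authors' values and with all 6 arrays as samples, with or without a block. Fits of all 6 arrays take near-identical arrays as separate, so such passes rest in part on technical spread. MRAK159688, MRAK007744 and MRAK079934 had changes of -0.10, -0.25 and 0.26, with 95% intervals of -0.69 to 0.49, -0.63 to 0.13 and -0.25 to 0.77. For the first and the last of these the stages overlapped, while the P10 arrays of MRAK007744 lay above its adult arrays. MRAK007744 passed the test with all 6 arrays as samples (limma adjusted p = 0.0273) and with slide as a block (limma adjusted p = 0.0493). MRAK079934 passed with median scaling (limma adjusted p = 0.0324), and its change was 0.44 without adult array 1. Differences within these intervals were not detectable with n = 2.

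Among the 542 brightest probes those with the smallest change were MRAK028560, MRAK004085 and MRAK150033. Their levels on the 6 arrays ran from 0.05 to 0.61, from -0.42 to -0.08 and from -0.05 to 0.59. The stages overlapped in each, and the 95% intervals of their changes were -0.63 to 0.64, -0.47 to 0.46 and -0.73 to 0.74. With slide as a block, which takes the 6 arrays as separate samples, MRAK150033 was called higher in adults (0.34, limma adjusted p = 0.0185). Without adult array 1 its change was -0.31.

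Adult array 1 differed from the other 2 adult arrays over many MRAK probes. Adult arrays 2 and 3 were more than 2-fold above array 1 for 387 tested MRAK probes and more than 2-fold below it for 44, with a median gap of 0.27, against 1919 and 315 of all 18355 tested probes and a median gap of 0.18. Among MRAK probes the median gap was 0.59 over the 542 dimmest and -0.05 over the 542 brightest. The change on array 1 alone had the direction of the fitted change for 2016 of 2168 tested MRAK probes and 17219 of all 18355 tested probes. Among MRAK probes without a call this held for 905 of 1057. For the 394 higher and 717 lower calls it held throughout, which the call itself largely fixes. Adult array 1 is 1 of the 2 adult samples in the fitted change, so this likeness is in part built in for every probe. The median change of the higher calls was 1.39 on array 1 and 1.31 on arrays 2 and 3. For the lower calls these medians were -2.10 and -1.57. A change of at least 2-fold that did not pass the test was seen for 148 MRAK probes. In 98 of these adult arrays 2 and 3 were more than 2-fold above array 1, in 12 more than 2-fold below it. Such probes are picked for a wide spread within a stage, so that choice in part fixes their gap. The part of the slide in the gap between adult array 1 and arrays 2 and 3 was not tested.

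**Figure D4:**
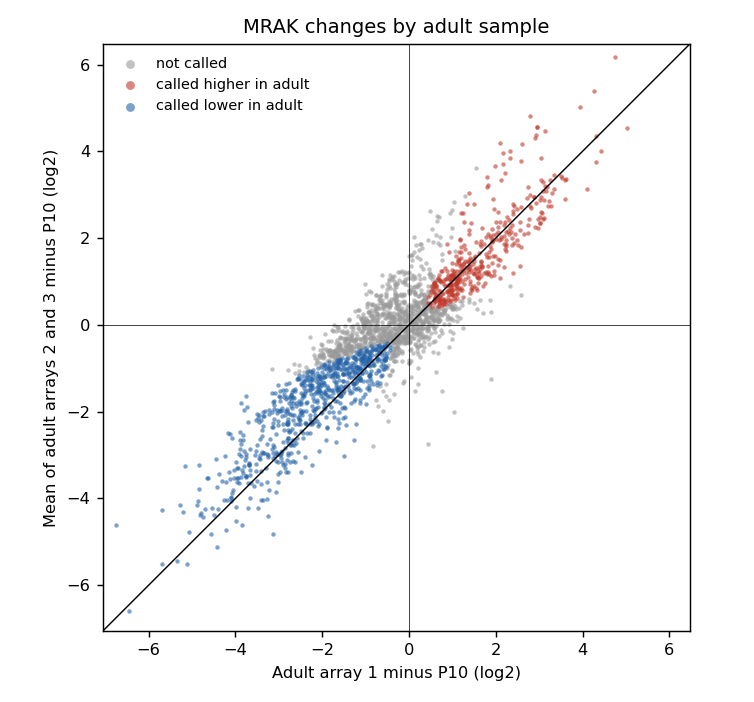
Change against the P10 mean for each tested MRAK probe on adult array 1 (x axis) and on the mean of adult arrays 2 and 3 (y axis), in log2, with the diagonal marking equal changes. Called probes lie in the same quadrant for both adult samples, and more probes lie above the diagonal than below it, 1439 against 729.

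On slide 1 alone, which held adult array 1 and the P10 arrays, the median change was -0.56 over MRAK probes and -0.32 over all tested probes. The adult side there is 1 array, and the spread comes from P10 arrays that differed by no more than spot noise. Counts of calls there rest on technical spread, so none is read as a result here. With slide as a block and all 6 arrays as samples these medians were -0.58 and -0.33. No P10 array lay on slide 2, so no value can be had within it. Without adult array 1 the median change was -0.26 over MRAK probes and -0.14 over all tested probes. Adult arrays 2 and 3 are then 1 sample, assumed to vary like the P10 samples. Leaving out P10 array 3 leaves the averaged P10 arrays 1 and 2 as the only P10 sample, assumed to vary like the adults. The medians were then -0.43 over MRAK probes and -0.26 over all tested probes.

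Patterns across the 6 arrays were compared by Pearson's r as a description. The arrays form the 2 stages, so r mostly follows the stage difference. Nearest to MRAK081258 were MRAK148572, MRAK085055, MRAK161703, MRAK135476 and MRAK137935, each with r of 0.999 or more over 6 arrays. They share its lower adult array 1: MRAK085055 rose by 3.45 (SE 0.33, limma adjusted p = 0.00382), which was 3.05 on adult array 1 and 3.86 on arrays 2 and 3. Nearest to MRAK014040 were MRAK035595, MRAK050663, MRAK172172, MRAK018459 and MRAK032934. The changes of MRAK035595, MRAK172172, MRAK018459 and MRAK032934 were -2.97, -3.30, -2.98 and -2.22, and MRAK050663 was lower by at least 47.8-fold. For MRAK035595 the change was -2.96 on adult array 1 and -2.99 on arrays 2 and 3, so the adult samples were alike there.

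MRAK names carry a number, taken here as that of the mouse cDNA. Lower calls made up 30.3% of tested probes with numbers below 30000, 36.2% from there to below 60000, 31.0% from there to below 100000 and 32.7% above, and higher calls 18.2%, 17.4%, 20.3% and 17.9%. The median changes in this order were -0.25, -0.49, -0.36 and -0.40. These values are a description, with no test.

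Other probe classes on the same arrays are given beside the MRAK shares, without a test between classes. Of tested probes with names beginning with MRuc 15.4% were higher and 31.5% lower in adults, of RefSeq model non-coding transcripts (XR) 8.47% and 48.2%, and of ultraconserved elements 11.6% and 38.4%. The shares were 17.6% and 30.5% for the other lncRNA probes and 23.6% and 28.8% for protein-coding probes. The median change was -0.39 for MRuc, -1.03 for XR, -0.77 for ultraconserved elements and -0.13 for protein-coding probes. With quantile normalization lower calls were 52.3% of called MRAK probes, 52.5% of MRuc, 75.3% of XR and 47.6% of protein-coding probes.

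**Figure D5:**
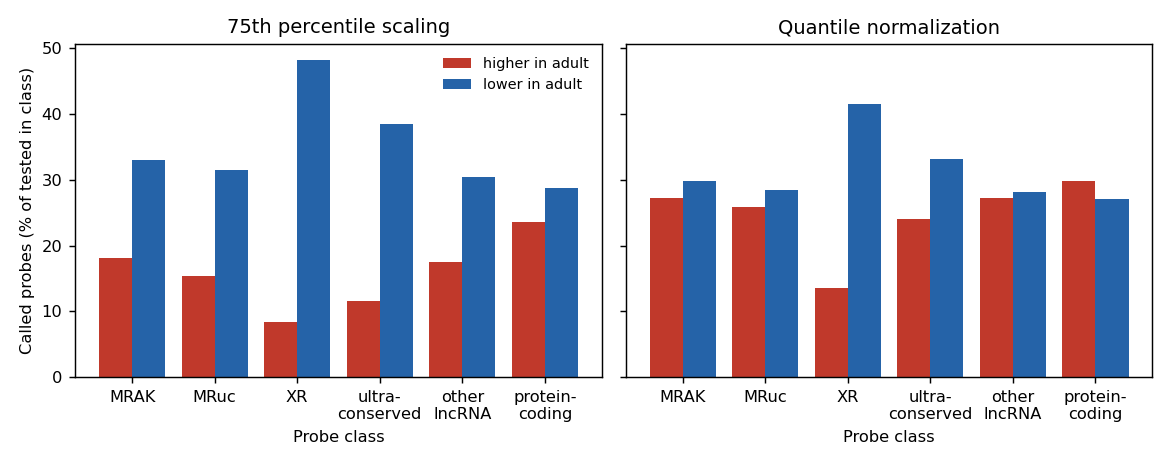
Share of tested probes called higher (red) or lower (blue) in adults by limma, in percent of the tested probes of each class, with 75th percentile scaling (left) and quantile normalization (right). For MRAK probes 18.2% were higher and 33.1% lower with the first scaling, and 591 and 647 of 2168 with the second.

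Cell markers on the same arrays moved with stage. In bulk islets fewer cells of a type and less RNA per cell cannot be told apart. Islet endocrine genes were present in both stages, with 12 of 12 measured genes well above background in each, 7 higher and 2 lower in adults, and summed levels, as multiples of the 75th percentile signal, of 673 to 844 in adults and 636 to 698 at P10. Acinar markers gave 9 lower and 0 higher of 11, with sums of 546 to 792 in adults and 1612 to 1719 at P10. Enterocyte markers gave 10 lower of 10, with sums of 7.60 to 8.48 and 282 to 297, and Apoa4 was not well above background on any adult array. Leukocyte markers gave 8 higher of 8, with sums of 42.2 to 49.6 in adults and 4.86 to 9.40 at P10, where Cd79b and Itgam were not well above background. Cell cycle genes gave 6 lower of 7, with sums of 10.9 to 11.9 and 19.5 to 20.7. The part of these cells in the MRAK changes was not tested.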

How the data were processed

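RNA of 6 islet samples was hybridised to 1-colour Agilent arrays. The deposited intensity values are the processed signals of the authors' scans, for which the submitters' processing notes name Agilent Feature Extraction (version 11.0.1.1). Well-above-background and outlier flags were used as deposited. The authors' log2 tables hold normalized values by a method not given in the sources used here, and served as an alternative for the 1874 MRAK probes they list. The file headers name a grid of an older rat build, and no coordinates were used.

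Control and outlier spots were left out, spots of a probe averaged, and each array's 75th percentile of log2 signal subtracted. Probes well above background on all 3 arrays of a stage were tested with limma (3.58.1, under R 4.3.3); p-values were adjusted by Benjamini-Hochberg over 18355 probes, at a threshold of 0.05. Intervals cover 95%. The code was tested on simulated data. Adult arrays 2 and 3 and P10 arrays 1 and 2 were averaged as 1 sample each. Deviations of same-numbered arrays correlated at -0.21, 0.08 and -0.24. The P10 arrays differed by no more than spot noise over MRAK probes, so this cannot show whether the numbers pair the samples. Alternatives were all arrays as samples, replicate and slide blocks, slide 1 alone, quantile and median scaling, the authors' values, normexp (offset 50, on median signals, as no mean signals were used), other filters and leaving out each array.

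Members and marker lists were chosen with earlier results of these data known. Named were the 12 largest called rises and falls measured on all arrays without overlap, the 5 largest bounds in each direction, the 5 brightest probes, 3 with the smallest change among the 542 brightest, and the 5 likest to the steepest rise and fall. Of 15321 protein-coding probes 14274 were named through RefSeq, and 0 MRAK probes.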

Additional observations from a re-analysis of the deposited data

How the results depend on the processing

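The counts of MRAK probes higher and lower in adults (394 and 717) kept within 1.5 times with all 6 arrays as separate samples, with the replicate block and with the filter on all 6 arrays. The replicate block gave 489 and 877 with a median change of -0.34, though it is not known whether the array numbers pair the samples. Slide as a block gave 601 and 1203, but takes near-identical arrays as separate samples. Slide 1 alone gave 1185 lower, from 1 adult array and P10 arrays that differed by no more than spot noise over MRAK probes. These larger counts thus rest in part on technical spread and do not show a stronger difference between the stages. The median change was -0.048 with quantile normalization, -0.089 with median scaling (56.6% of calls lower), -0.023 with the authors' values (456 lower, 51.0% of calls) and -0.89 without a filter (1512 lower). Normexp gave 188 and 217, with 53.6% of calls lower. Leaving out single arrays gave 144 to 639 higher, 385 to 960 lower and medians of -0.43 to -0.26. Averaging all P10 arrays as 1 sample, chosen after seeing the data, gave 140 and 375, with 1 sample for that stage. Limits in place of fitted folds, and the share per counted sample, were also chosen after seeing the data. The difference in the share of probes well above background (-0.57 points) was -4.80 for positive and significant spots and -2.29 to 0.53 without single arrays (0.53 and 0.06 without adult arrays 1 and 3, 0.12 without P10 array 3). In every one of 18 settings that tested them 98 MRAK probes were higher and 143 lower, while 85 were called both ways in different settings. Counts over all tested probes were not made for this, nor for most settings above, so none of these counts marks MRAK probes out. Among named probes the sign turned only for 5 without a call. With all arrays as samples and with the replicate block MRAK004085 was at 0.033 and MRAK150033 at -0.078. With slide as a block and on slide 1 MRAK159688 was at 0.14 and 0.11 and MRAK028560 at -0.27 and -0.24. With quantile normalization and the authors' values MRAK159688 was at 0.18 and 0.18, MRAK028560 at -0.014 and -0.0099 and MRAK150033 at -0.022 and -0.018. Median scaling gave 0.20 for MRAK159688, 0.055 for MRAK007744 and 0.29 for MRAK004085, and P10 as 1 sample -0.026 for MRAK028560. Without single arrays MRAK004085 ran from -0.033 to 0.14, MRAK150033 from -0.31 to 0.066, MRAK159688 from -0.31 to 0.0037 and MRAK028560 from -0.082 to 0.25. The cause of these shifts was not tested, and probes near background limit what can be measured.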
